A study of Mus musculus with 12 samples.

Results

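The urea cycle and glutamate metabolism genes described here are 9 enzymes by which the liver takes nitrogen off amino acids and turns it into urea. They were chosen by name: Nags, Cps1, Otc, Ass1 and Asl for the urea cycle, and Glud1, Got1, Gpt and Gls2 for glutamate. All 9 were found by symbol among the 48526 genes measured. All 9 were also among the 11968 genes tested, those with more than 1 CPM in at least 6 livers (CPM is a gene's count as a share of its library, scaled to a fixed library size). RNA was sequenced from livers of female and male C57BL/6J mice, for which the labels give no genetic change. The mice were 8 to 10 weeks old at the start, and each sex ate chow or chow with simvastatin, a cholesterol-lowering inhibitor of HMG-CoA reductase, for 4 weeks. Each of the 4 groups of sex and diet had 3 livers, 12 in all, taken here as separate mice. The simvastatin dose was 0.1 g/kg, given per body weight in the labels and per food weight in the study's methods. The labels also give the same diet formulation for chow and statin groups, while the methods name that one for the statin diet and another for chow.

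Ammonia enters the urea cycle in the mitochondria of hepatocytes, and the cycle ends in the cytosol with the release of urea. The other nitrogen of urea comes from aspartate, and glutamate is the hub that collects nitrogen from other amino acids and passes it on as ammonia or as aspartate. The cycle and the glutaminase of hepatocytes are strongest around the portal vein, and glutamine synthetase marks the cells around the central vein. Glucagon, glucocorticoids and protein intake are known to raise several of these enzymes.

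Each liver held between 46066381 and 60419223 counts, more than the average number of reads per sample in the study's methods. The sources used here do not explain this difference. Levels below are CPM after TMM scaling, a correction for differences in RNA composition. All 7 hepatocyte markers were detected in the livers, and the 4 kidney markers summed to at most 1.19 CPM in any. The slope of a liver's log2 levels on log2 transcript length ran from -0.139 (statin female 1) to 0.143 (statin female 2). Its part in the results was tested only by a fit with it as a covariate. In bulk tissue, fewer cells of a type and less RNA per cell cannot be told apart.

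The 250 bases before the start sites of Got1 and Glud1 are shown because, of the 9, these had statin and chow livers that did not overlap in females, in opposite directions (they were chosen after these values were seen). The sequences are from RefSeq (GRCm38.p6), which matched 5 of the 9 members (Nags, Otc, Ass1, Glud1 and Got1). They lie at chr19:43524606-43524855 on the minus strand for Got1 and at chr14:34310477-34310726 on the plus strand for Glud1. Capitals mark CCAAT, TGATGNAA and GGGCGG on either strand.
Got1: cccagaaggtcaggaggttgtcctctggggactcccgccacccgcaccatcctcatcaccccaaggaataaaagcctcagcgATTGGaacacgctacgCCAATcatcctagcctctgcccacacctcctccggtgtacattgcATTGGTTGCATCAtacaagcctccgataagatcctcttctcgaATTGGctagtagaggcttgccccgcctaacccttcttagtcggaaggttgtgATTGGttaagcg
Glud1: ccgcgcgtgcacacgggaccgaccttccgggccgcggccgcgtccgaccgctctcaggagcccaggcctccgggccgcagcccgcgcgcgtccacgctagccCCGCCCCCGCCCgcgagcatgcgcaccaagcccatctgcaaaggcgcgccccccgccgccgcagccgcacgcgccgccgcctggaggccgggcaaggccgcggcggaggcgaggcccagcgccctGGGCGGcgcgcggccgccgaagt
The Got1 stretch was 54.4% G and C. It held 5 matches to CCAAT, the letters bound by NF-Y, and 1 to TGATGNAA, the core of the response element of ATF4. That match began 102 bases before the start, next to the CCAAT match that began at 107, without overlap. Of 32851 promoter stretches of this length, 33.8% held CCAAT and 3.45% held TGATGNAA. None of the other 4 members with a sequence held either. The Glud1 stretch was 82.0% G and C and held 3 matches to GGGCGG, a GC box, which 32.7% of all stretches held. TATAAA was in none of the 5 and in 12.4% of all stretches. CACGTG, an E-box, was in that of Ass1 and in 6.02% of all. AGGTCA, which nuclear receptors bind, was in those of Nags and Got1 and in 14% of all. A match of letters is a description and not a binding site.

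The members spanned a wide range of levels. Per kilobase of the principal transcript, Ass1 stood first with a median over the 12 livers of 1549.9 CPM per kb, then Cps1 with 747. Glud1 followed with 379 CPM per kb, Asl with 245, Otc with 216, Got1 with 159.8, Gpt with 153 and Gls2 with 147. Nags, which makes the activator of Cps1, was last with 36.4. Between neighbours in this order the ranges over livers overlapped, except that every liver had more Cps1 per kb than any had Glud1, and more Gls2 than any had Nags. As a share of a liver's counts, the 5 urea cycle genes took 0.822% to 1.14% in females on chow and 0.596% to 0.840% in females on statin. In males they took 0.605% to 0.797% on chow and 0.750% to 0.897% on statin. The chow and statin livers overlapped in both sexes. The 4 glutamate genes took 0.196% to 0.258% over the 12 livers, and the groups overlapped. No test was run on these shares.

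**Figure D1:**
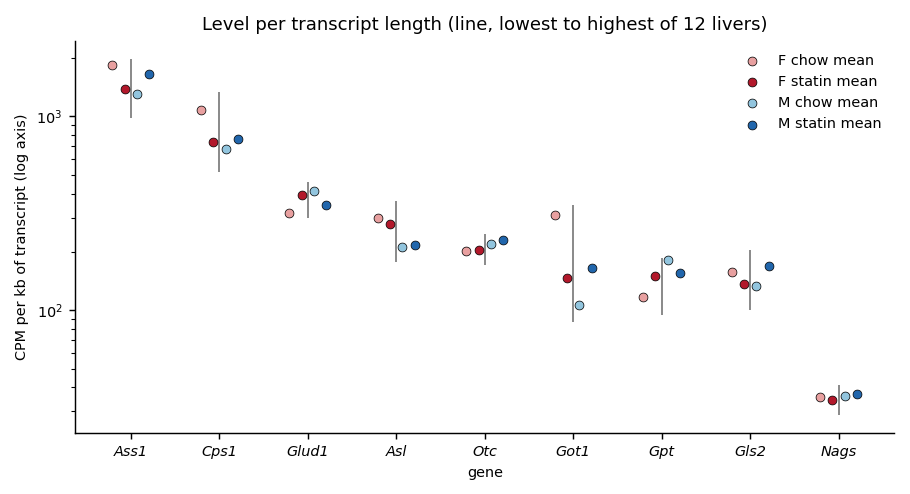
CPM per kb of principal transcript (log axis) for the 9 genes in order of their median. Points are group means of 3 livers, and the grey line runs from the lowest to the highest of the 12 livers. Nags (median 36.4) stood below the other 8, and the mean of Got1 was highest in females on chow.

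The mitochondrial steps begin with Nags, N-acetylglutamate synthase (chr11:102145513-102149477). In females its levels were 76.7, 75.2 and 64.3 CPM on chow and 58.5, 68.6 and 83.3 on statin, and in males 74.0, 69.1 and 75.3 on chow and 77.0, 73.6 and 73.1 on statin. All 4 groups overlapped. The log2 difference of statin from chow was -0.04 ± 0.13 (SE) in females and 0.03 ± 0.13 in males. The 95% interval was 0.796 to 1.19 fold in females and 0.838 to 1.25 fold in males. Exons of Nags overlap the antisense gene Gm11586 (1.22 to 2.43 CPM), and their reads could be told apart only if counting used strand.

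Cps1, carbamoyl phosphate synthetase and the entry step of the cycle (chr1:67123026-67231259), had the most counts of the 9. Females had 7456, 4269.9 and 6170.5 CPM on chow and 3587, 5237 and 3520.0 on statin, and males 3641, 2882 and 4751 on chow and 5391, 4027 and 3252 on statin. The mean was highest in females on chow (5965 ± 1603, SD), but 1 female liver on statin lay within their range. The female difference was -0.54 ± 0.27 (log2 ± SE, adjusted p = 0.535) and the male 0.17 ± 0.27 (adjusted p = 1.00). Without chow female 1, the highest liver, the female value was -0.33. Without statin male 1 the male value was -0.05.

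Otc, ornithine transcarbamylase (chrX:10252305-10321024), makes citrulline. Chow livers had 396, 441 and 572 CPM in females and 539, 505 and 483 in males, and statin livers 493, 400.4 and 524 in females and 495, 573 and 534 in males. The groups overlapped, and the log2 differences were 0.01 ± 0.16 (SE) in females and 0.07 ± 0.16 in males. The 95% intervals were 0.792 to 1.28 fold and 0.825 to 1.33 fold.

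In the cytosol, Ass1 (argininosuccinate synthase, chr2:31470207-31520672) joins citrulline to aspartate. Its female levels were 3328, 2675 and 3373 CPM on chow and 2903, 2443 and 1672 on statin. Its male levels were 2489, 1894 and 2265 on chow and 2582, 3005 and 2784 on statin. The female groups overlapped, and every male liver on statin lay above every male liver on chow. The log2 difference was -0.42 ± 0.20 (SE, adjusted p = 0.507) in females and 0.33 ± 0.20 (adjusted p = 1.00) in males. Without statin female 3, the lowest liver, the female value was -0.21. The pseudogene Gm5424 matches 1240 bases of the Ass1 transcript at 99.5% identity. It had 8.35 to 19.4 CPM, so reads could have been split between them.

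Asl, argininosuccinate lyase (chr5:130011258-130029247), releases fumarate and arginine. Among females it had 713, 572 and 880.0 CPM on chow and 683, 678 and 665 on statin, and males had 505, 435 and 601 on chow and 428, 569.9 and 579 on statin. Statin and chow livers overlapped in both sexes, with log2 differences of -0.10 ± 0.18 (SE) in females and 0.03 ± 0.18 in males.

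**Figure D2:**
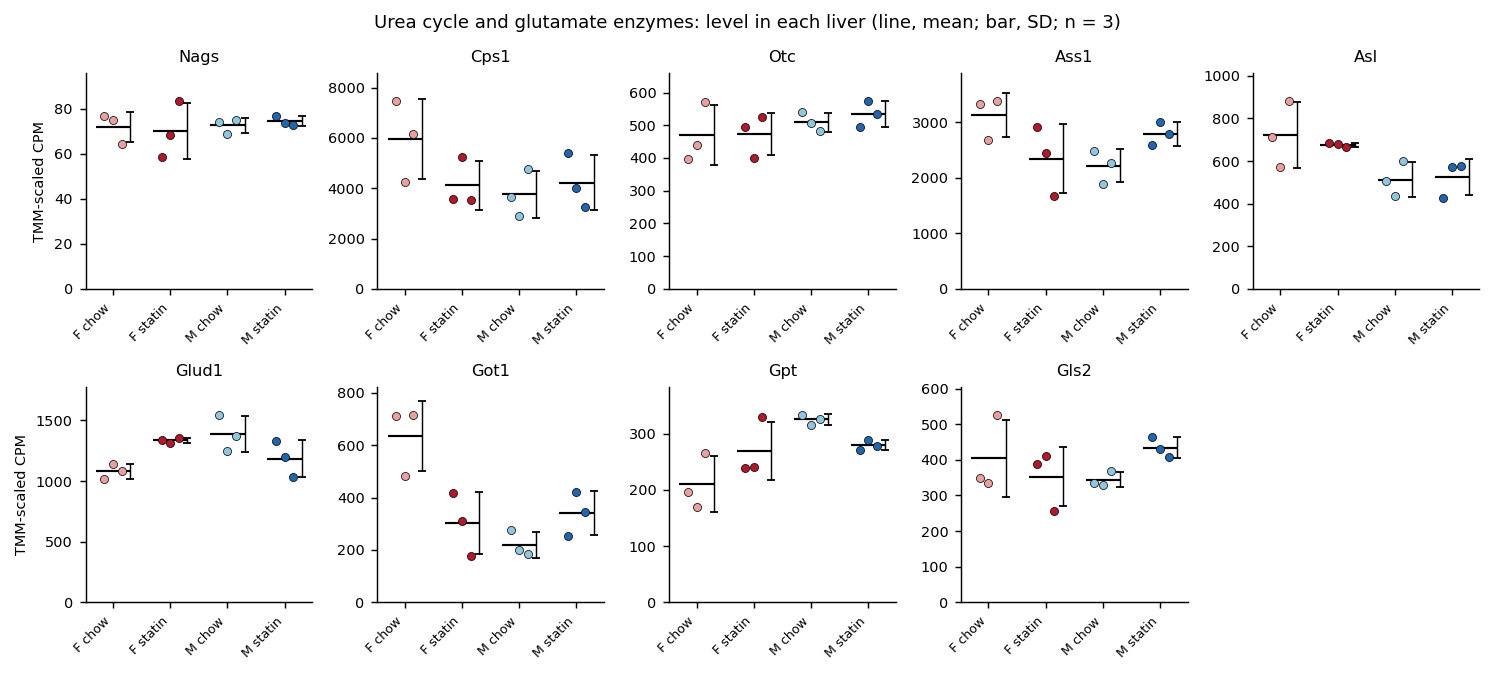
TMM-scaled CPM of the 9 genes in each of the 12 livers, by group. Points are livers, lines are means and bars are SD of 3 livers, and every axis starts at 0. Got1 was highest in the 3 female livers on chow (481 to 717 CPM), while Nags, Cps1 and Otc overlapped in all 4 groups.

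Of the 9 members, Got1 had the widest range over the livers, 4.02-fold. It is the cytosolic aspartate aminotransferase, which interconverts glutamate and aspartate and is part of the malate-aspartate shuttle (chr19:43499752-43524605). Its levels in females were 709.9, 481 and 717 CPM on chow and 418, 312 and 178 on statin. Its levels in males were 276, 200.2 and 184 CPM on chow and 254, 421 and 346 on statin. All female livers on statin lay below all female livers on chow, and the male groups overlapped. In females the statin level was 0.476 of the chow level (95% interval 0.303 to 0.747), a log2 difference of -1.07 ± 0.30 (SE). This was rank 210 by p among all genes and did not pass the adjustment in edgeR (adjusted p = 0.210). It passed in DESeq2 (adjusted p = 0.0234) and in edgeR without the filter on low counts (adjusted p = 0.0195). Over all alternatives the adjusted p ran from 0.0195 to 0.559. Leaving out 1 liver at a time gave -1.36 to -0.79, the weakest without statin female 3, the liver with 178 CPM. In males the log2 difference was 0.63 ± 0.30 (SE, adjusted p = 1.00).

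Glud1, glutamate dehydrogenase (chr14:34310727-34345265), frees ammonia from glutamate in mitochondria. Females on chow had 1016, 1143 and 1081 CPM and females on statin 1339.8, 1316 and 1356. Males on chow had 1548, 1250.4 and 1374 CPM and males on statin 1330.2, 1195 and 1030.2. All female livers on statin lay above all female livers on chow, and the 3 on statin lay close together (1316 to 1356 CPM). The female difference was 1.24-fold, or 0.31 ± 0.14 (log2 ± SE, adjusted p = 0.460). In males it was -0.23 ± 0.14 (adjusted p = 1.00). Leaving out 1 liver at a time gave a male value of -0.32 to -0.14, nearest to 0 without statin male 3 and -0.15 without chow male 1.

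Gpt, the cytosolic alanine aminotransferase (chr15:76695716-76699686), moves nitrogen between alanine and glutamate. It had 196, 169 and 266 CPM in females and 334, 316 and 327 in males on chow. On statin it had 238, 241 and 329.7 CPM in females and 272, 289 and 278 in males. The female groups overlapped, and every male liver on statin lay below every male liver on chow. The log2 differences were 0.36 ± 0.18 (SE, adjusted p = 0.526) in females and -0.22 ± 0.18 (adjusted p = 1.00) in males. Without chow female 3 the female value was 0.56, and without statin female 3 it was 0.20.

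Gls2, the liver-type glutaminase (chr10:128194457-128210004), frees ammonia from glutamine. Its levels were 349, 335 and 527 CPM in females on chow, 389, 411 and 257 in females on statin, 335, 329 and 368 in males on chow and 464, 431 and 408 in males on statin. The female groups overlapped, and the male livers on statin lay above those on chow. The log2 differences were -0.20 ± 0.20 (SE, adjusted p = 0.870) in females and 0.34 ± 0.20 (adjusted p = 1.00) in males. The female value was 0.051 without chow female 3 and 0.0028 without statin female 3. Exons of Gls2 overlap Spryd4 on the other strand.

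For statin against chow in females, 0 of the 9 members passed an adjusted p of 0.05 in edgeR, where 0.100% of all genes did (12 of 11968). DESeq2 called 1 member, Got1, and 270 genes, and limma-trend called 0 members and 13 genes. At an unadjusted p of 0.05 edgeR called Got1 and Glud1, 2 of 9, where 10.5% of all genes were called. The statin and chow livers of the same 2 members did not overlap, as for 1437 of 11968 genes. The median log2 difference was -0.10 for the members and 0.01 for all genes.

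For statin against chow in males, 0 of the 9 members passed the adjusted p in edgeR, where 0% of all genes did (0 of 11968). DESeq2 called 0 members and 4 genes, and limma-trend called 0 members and 0 genes. At an unadjusted p of 0.05 edgeR called 0 members, where 1.96% of all genes were called, and DESeq2 called 1, Got1, and 306 genes. Statin and chow livers did not overlap for 3 of 9 members (Ass1, Gpt and Gls2) and for 951 of 11968 genes. The median log2 difference was 0.07 for the members and 0.00 for all genes.

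**Figure D3:**
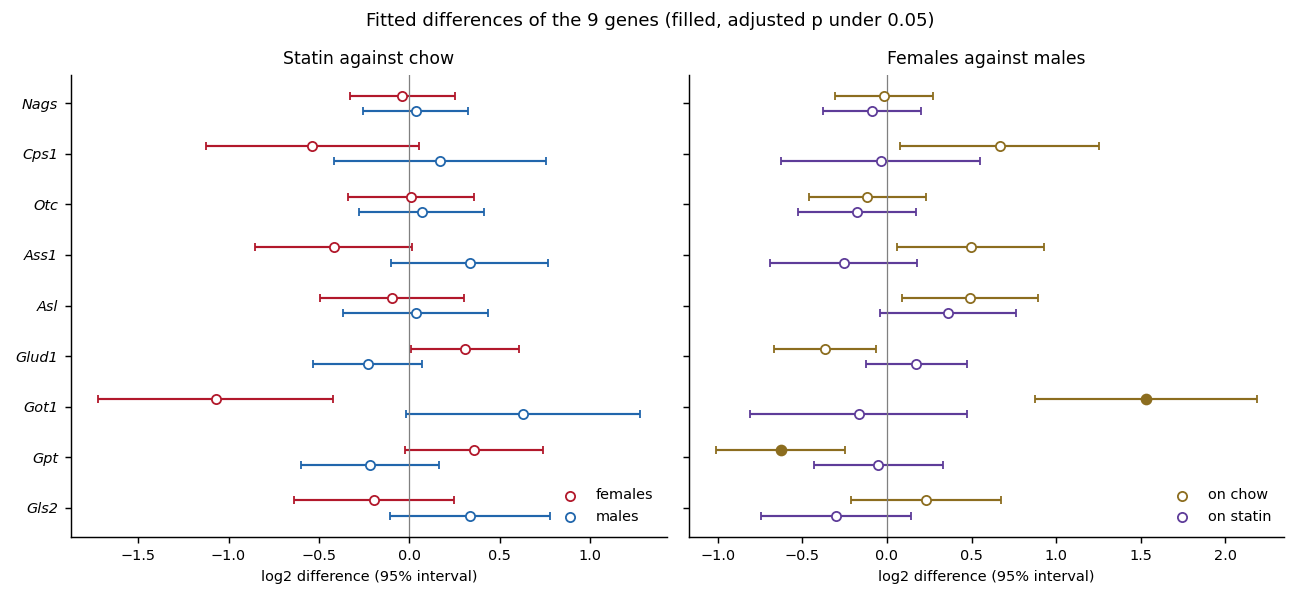
Log2 differences of the 9 genes with 95% intervals from edgeR, statin against chow in females and males (left) and females against males on chow and on statin (right). Filled points passed an adjusted p of 0.05, which were Got1 (1.53) and Gpt (-0.63) between the sexes on chow.

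The difference between the female and the male response was tested itself. It passed the adjusted p in edgeR for 0 of the 9 members, and for 0% of all genes. DESeq2 called Got1 (adjusted p = 0.0150) and 122 genes, and limma-trend called 0 members and 0 genes. At an unadjusted p of 0.05 edgeR called 4 members, where 8.01% of all genes were called. Got1 had a female minus male response of -1.70 ± 0.42 (log2 ± SE, adjusted p = 0.305), rank 63 by p. Ass1 had -0.75 ± 0.28 (adjusted p = 0.490). Both had a lower statin response in females than in males. Glud1 had 0.54 ± 0.20 (adjusted p = 0.473) and Gpt 0.58 ± 0.25 (adjusted p = 0.580), both with a higher response in females. For the other 5 the 95% interval included 0, with -1.53 to 0.12 for Cps1, -1.16 to 0.09 for Gls2, -0.55 to 0.43 for Otc, -0.70 to 0.44 for Asl and -0.48 to 0.34 for Nags.

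Between the sexes on chow, 2 of the 9 members passed the adjusted p, where 10.4% of all genes did. Got1 was 2.89-fold higher in females (95% interval 1.83 to 4.56), with a log2 difference of 1.53 ± 0.30 (SE, adjusted p = 0.00727). It passed in all 12 fits that left out 1 liver and in all 8 other settings tried for it, with adjusted p up to 0.0388. The female level of Gpt was 0.647 of the male level, a log2 difference of -0.63 ± 0.18 (SE, adjusted p = 0.0403). It passed in 5 of those 12 fits and in 7 of the 8 other settings, all but the filter at a mean of at least 10 CPM. Without chow female 1 or 2, chow male 1, 2 or 3, or statin male 2 or 3 its adjusted p was 0.0544 to 0.141. At an unadjusted p of 0.05 edgeR called 6 members, where 24.9% of all genes were called. Beside Got1 and Gpt these were Cps1 (0.67 ± 0.27, log2 ± SE), Ass1 (0.50 ± 0.20), Asl (0.49 ± 0.18) and Glud1 (-0.37 ± 0.14), with adjusted p from 0.114 to 0.144. The sexes did not overlap on chow for 4 of 9 members, Got1 and Ass1 with females above and Glud1 and Gpt with females below, and for 4511 of 11968 genes. The differences of the remaining members were -0.01 ± 0.13 (log2 ± SE) for Nags, -0.12 ± 0.16 for Otc and 0.23 ± 0.20 for Gls2. At the adjusted p DESeq2 called 3 members, Got1, Gpt and Glud1, and 1946 genes. The fit with the transcript length slope as a covariate called these 3 and Cps1, and 3367 genes. The median log2 difference was 0.23 for the members and -0.01 for all genes.

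Between the sexes on statin, 0 of the 9 members passed the adjusted p in edgeR, where 6.28% of all genes did. At an unadjusted p of 0.05 it called 0 members, where 19.4% of all genes were called. DESeq2 and limma-trend called 0 members at either threshold. Of all genes DESeq2 called 1284 adjusted and 2551 unadjusted, and limma-trend 758 and 2293. The sexes did not overlap for 1 of 9 members and for 2344 of 11968 genes. The member was Asl (665 to 683 CPM in females, 428 to 579 in males). The log2 difference of Asl was 0.36 ± 0.18 (SE, adjusted p = 0.319). That of Got1 was -0.17 ± 0.30, with a 95% interval from -0.81 to 0.48. For the others the log2 differences were -0.09 ± 0.13 (SE) for Nags, -0.04 ± 0.27 for Cps1, -0.18 ± 0.16 for Otc, -0.25 ± 0.20 for Ass1, 0.17 ± 0.14 for Glud1, -0.05 ± 0.18 for Gpt and -0.30 ± 0.20 for Gls2. The livers of both sex comparisons are also those of the statin comparisons, so the sex and statin values are not independent.

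On chow 2 of 7 macrophage and Kupffer markers, 1 of 6 endothelial markers and 2 of 6 stellate and fibroblast markers passed the adjusted p between the sexes, all higher in females, and 0 of 2 tested cholangiocyte markers did (10.4% of all genes). Of the hepatocyte markers 2 of 7 passed, Cyp2e1 and Apoa1, and of the erythroid markers 1 of 5, Alas2, all lower in females. The whole lists were not lower, with a median log2 difference of 0.05 for the 7 hepatocyte and 0.19 for the 5 erythroid markers. The 7 macrophage and Kupffer markers summed to 496 to 592 CPM in females and 255 to 408 in males on chow, and to 421 to 675 and 247 to 314 on statin. The livers of females and males on statin did not overlap in this sum, nor did those on chow. On chow the median log2 difference of females from males was 0.70 for these markers, 0.54 for 6 endothelial markers and 0.65 for 6 stellate and fibroblast markers. For statin against chow in females the same medians were 0.09, -0.09 and -0.43, and for 7 hepatocyte markers it was 0.30, with 0 of these markers passing the adjusted p. The 7 hepatocyte markers summed to 99259 to 135818 CPM in females and 82474 to 131172 in males on chow, which overlapped, and to 118188 to 159899 and 85342 to 99263 on statin, which did not. None of these markers was at 0 in all livers. Their part in the sex differences of Got1, Gpt and the other members was not tested.

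**Figure D4:**
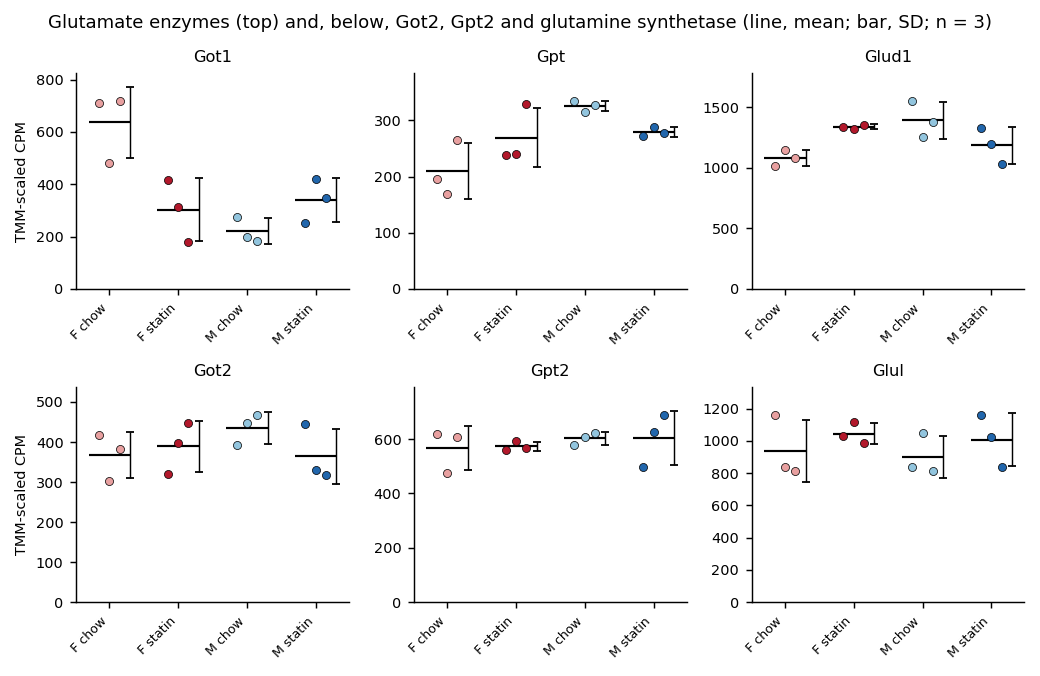
TMM-scaled CPM of Got1, Gpt and Glud1 (top) and of Got2, Gpt2 and Glul (bottom) in the 12 livers, by group. Points are livers, lines are means and bars are SD of 3 livers, and axes start at 0. The female and male livers on chow did not overlap for Got1, Gpt and Glud1, as for 4511 of 11968 genes. They overlapped for Got2 and Gpt2, the mitochondrial counterparts of Got1 and Gpt, and for Glul.

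The mitochondrial aspartate aminotransferase Got2 had 368 ± 58.5 CPM (SD) in females on chow, 389 ± 64.3 in females on statin, 435 ± 39.7 in males on chow and 364 ± 69.6 in males on statin. Its female statin difference was 0.08 ± 0.18 (log2 ± SE, adjusted p = 0.969), beside -1.07 for Got1. On chow it differed by -0.24 ± 0.18 (log2 ± SE, adjusted p = 0.454) between females and males, beside 1.53 for Got1. Gpt2, the mitochondrial alanine aminotransferase, had 567 ± 79.8 CPM in females and 603 ± 23.9 in males on chow, a log2 difference of -0.09 ± 0.15 (SE, adjusted p = 0.766), beside -0.63 for Gpt. Whether members and paralogs differ from each other was not tested. Glul, glutamine synthetase, had 938 ± 195 CPM in females on chow and 1045 ± 66.5 on statin, a log2 difference of 0.16 (adjusted p = 0.894).

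Of 18 tested carriers and transporters around the cycle, 0 passed the adjusted p for statin in either sex, and 6 in females and 1 in males passed an unadjusted p of 0.05, where 10.5% and 1.96% of all genes did. The smallest p in females was that of Slc25a10, the dicarboxylate carrier (0.78 log2, adjusted p = 0.175). Beside it were Aqp9, a channel for urea and glycerol (0.56), Slc25a13, the aspartate-glutamate carrier citrin (0.53), and Slc25a15, the ornithine carrier of the cycle (-0.49), with adjusted p from 0.218 to 0.301. Of the 6 in females, 4 were higher on statin and 2 lower, Slc25a15 and Slc25a22 (-0.62, adjusted p = 0.303). In males Slc38a2, a glutamine transporter, had 0.49 (adjusted p = 1.00). On chow 3 of the 18 differed between the sexes, where 10.4% of all genes did. Slc25a22, a mitochondrial glutamate carrier, was higher in females (0.91, adjusted p = 0.0173), as was Slc7a7, an exporter of cationic amino acids (0.96, adjusted p = 0.0175). Slc25a10 was lower in females (-1.01, adjusted p = 0.00896).

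Of 23 tested partner enzymes and paralogs, 0 passed the adjusted p for statin in either sex, and 6 in females and 0 in males passed the unadjusted p (10.5% and 1.96% of all genes). Aldh18a1, which starts the path from glutamate to proline and ornithine, had 6.01 ± 2.31 CPM (SD) in females on chow and 2.26 ± 0.870 on statin, and these livers did not overlap (-1.41 log2, adjusted p = 0.133). Asns, asparagine synthetase, had -1.43 (adjusted p = 0.324) from a level of 1.59 ± 0.982 CPM on chow. The malate dehydrogenases had -0.32 (Mdh1, adjusted p = 0.396) and -0.29 (Mdh2, adjusted p = 0.342). Of the 6 at the unadjusted p, these 4 were lower on statin and 2 higher, Odc1 and Gclm, the latter of glutathione synthesis (0.37, adjusted p = 0.466). The median of the 23 in females was 0.07. On chow 2 of the 23 passed the adjusted p, where 10.4% of all genes did, both higher in females. These were Aldh18a1 (2.07, adjusted p = 0.00308) and Mdh2 (0.43, adjusted p = 0.0234).

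Of 40 tested genes of amino acid catabolism, 0 passed the adjusted p for statin in either sex, and 4 in females and 1 in males passed the unadjusted p (10.5% and 1.96% of all genes). The 1 in males was Agxt (-0.38 log2, adjusted p = 1.00). The 4 in females were Kynu of tryptophan breakdown (-0.74 log2), Agxt, an aminotransferase that clears glyoxylate (0.57), Tat, the tyrosine aminotransferase (-0.91), and Hgd of tyrosine breakdown (-0.47), with adjusted p from 0.113 to 0.302. On chow 4 of the 40 differed between the sexes, close to the 10.4% of all genes. Sds, serine dehydratase (1.09), and Gcat of threonine breakdown (0.52) were higher in females, and Agxt (-0.77) and Ftcd of histidine breakdown (-0.75) were lower, with adjusted p from 0.00353 to 0.0348. Of the 20 transcription factors and hormone receptors, 0 passed the adjusted p for statin in either sex, and 2 in females and 0 in males passed the unadjusted p (10.5% and 1.96% of all genes). Creb3l3, a fasting-induced factor of liver, had 205 ± 25.4 CPM in females on chow and 331 ± 45.4 on statin (0.69, adjusted p = 0.0951). Klf15, known to act on amino acid breakdown, had -0.41 (adjusted p = 0.351). On chow 3 of the 20 passed the adjusted p (10.4% of all genes). Creb3l3 (-0.75), Gcgr, the glucagon receptor (-0.63), and Foxa1 (-0.54) were lower in females, with adjusted p from 0.00468 to 0.0386.

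Of 11 periportal genes, 4 of which are members (Cps1, Ass1, Asl and Gls2), 0 passed the adjusted p for statin in either sex, and 1 in females, Hsd17b13 (0.32 log2, adjusted p = 0.460), and 0 in males passed the unadjusted p (10.5% and 1.96% of all genes). Their median log2 difference in females was -0.15. On chow 2 of the 11 differed between the sexes (10.4% of all genes), Sds, which was higher in females (1.09), and Cyp2f2, which was lower (-1.24, adjusted p = 0.00796). Of 11 pericentral genes, 0 passed the adjusted p for statin in either sex, and 2 in females and 0 in males passed the unadjusted p (10.5% and 1.96% of all genes). The 2 were Cyp2e1 (0.72 log2, adjusted p = 0.211) and Cyp1a2 (0.75, adjusted p = 0.432), and the median of the list in females was 0.19. On chow 2 of the 11 passed the adjusted p (10.4% of all genes). Cyp2e1 (-1.36, adjusted p = 0.00139) and Cyp27a1 (-0.80, adjusted p = 0.0265) were lower in females.

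The genes with levels most like those of each member were named by Pearson r of log2 levels over the 12 livers, a description in which the 4 groups, depth and RNA quality are shared. Members were left out of this search. The genes most like Got1 were Ctsl (0.95), Gstm3 (0.94) and Slc25a22 (0.94). Those most like Gpt were Dcxr (0.98), Afmid (0.96) and Ahcy (0.95), those most like Glud1 were Wdr13 (0.88), D630039A03Rik (0.85) and Agxt (0.85), and those most like Gls2 were Sesn3 (0.87), Tom1l1 (0.86) and Mtmr7 (0.84). Among the urea cycle genes, Cps1 was most like Taf1 (0.96), Vrk3 (0.93) and Ddb1 (0.92), and Ass1 most like Gm5424 (0.93), Ap3m1 (0.91) and Plcxd1 (0.90), the first of which is its near-identical pseudogene. Asl was most like Cisd3 (0.90), Sfxn1 (0.90) and Pyroxd2 (0.89), Otc most like Rnf4 (0.91), Zfp2 (0.89) and Pfdn2 (0.89), and Nags most like BC024978 (0.87), Sfpq (0.86) and Usp48 (0.85). The r of the nearest gene ran from 0.87 to 0.98.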

How the data were processed

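Liver RNA was sequenced as strand-specific mRNA libraries. The authors aligned the reads to GRCm38 with STAR 2.4.1a and counted them with HTSeq, whose strand setting is not given in the sources used here, and named edgeR 3.28.1. They deposited CPM of all 48526 genes and, for 11968 genes above 1 CPM in at least 6 livers, counts, which are whole reads although named as TMM-normalized. The CPM values gave whole reads for 100% of values (within 0.05 of a read), identical to the counts.

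Here the counts of all 11968 genes and 12 livers were fitted in edgeR 4.0.16 (quasi-likelihood, TMM, 4 groups, 5 contrasts, two-sided), with Benjamini-Hochberg adjustment over all genes. The SE is the log2 difference over the square root of F. The p-values set each difference against the spread between these livers within the 4 groups, estimated with information shared among genes. Of the genes in the CPM table, 48144 had a symbol in GENCODE vM21, whose positions and transcript lengths were used. The fit was tested on simulated data. Alternatives used DESeq2 1.42.0, limma 3.58.1 (log2(CPM + 1)), other scalings and filters, covariates and left-out livers. Transcripts were compared with BLAST 2.17.0; plots used matplotlib 3.10.9.

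The members and the lists of related genes were chosen with earlier results of these data known. All 9 members described are named in every comparison. Of the 10 in the rule, 1 is not reported here, nor is 1 paralog, and counts over lists leave both out. Of each other list, genes past the adjusted p for statin would be named, and otherwise up to 4 with the smallest p in females, 2 in males and 4 between the sexes on chow; a part of these is printed. The paralogs are always named, as are the 3 most like genes of each member. Odc1, Apoa1 and Alas2 were named after their values were seen.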

Additional observations from a re-analysis of the deposited data

Results flagged for a closer look

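The statin response differed between the sexes at an unadjusted p of 0.05 in edgeR for 4 members, where 8.01% of all genes reached it, and for 0 of them after adjustment over all genes. The female minus male log2 response of Got1 was -1.70 (adjusted p = 0.305), from -1.07 in females and 0.63 in males. It passed the adjusted p in DESeq2 (adjusted p = 0.0150) and in edgeR without the filter on low counts (adjusted p = 0.0109). That of Ass1 was -0.75 (adjusted p = 0.490), from -0.42 and 0.33. Glud1 had 0.54 (adjusted p = 0.473), from 0.31 and -0.23, and Gpt had 0.58 (adjusted p = 0.580), from 0.36 and -0.22. Groups of 3 livers were too small for a search for outlying livers.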

How the results depend on the processing

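Of 405 log2 differences of members under other settings (9 members, 5 comparisons), 393 kept their direction and their side of the threshold. Another scaling (relative log expression, library size alone, or the 10 highest genes left out) moved no member's call. Library size alone turned Otc for statin in females to -0.032 and no filter on low counts to -0.00033. A mean of at least 10 CPM turned Nags on chow between the sexes to 0.033 and Cps1 on statin to 0.0090, and it ended the call of Gpt on chow (adjusted p = 0.0556), which left 1 member. The causes of these changes were not tested.

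Members called at the adjusted p were, in DESeq2, 1 for statin in females, 1 for the response and 3 on chow between the sexes. At the unadjusted p it called 4 in females and 1 in males, with 1436 and 306 of all genes. Of all genes it called 270 in females, 4 in males, 122 for the response, 1946 between the sexes on chow and 1284 on statin. With no filter on low counts, 1 member in females and 1 for the response passed, with 148 and 103 genes, and 1 member, 630 genes in males and 1461 genes for the response passed unadjusted. With a mean of at least 10 CPM, 5 genes passed in females, 771 on chow and 357 on statin between the sexes, and 133 in males, 1794 and 1281 between the sexes unadjusted, with fewer genes tested. With each sex fitted alone, 0 genes passed in females, and unadjusted 1 member and 808 genes in females and 3 members and 360 genes in males. With the transcript length slope as a covariate, 4 members passed on chow between the sexes, and 4 in females unadjusted. Genes passing were then 427 in females, 49 for the response, 3367 on chow and 2225 on statin between the sexes, and unadjusted 2573 in females, 841 in males, 2082 for the response, 4843 and 4019.

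The liver numbers gave no sign of pairing, though groups of 3 livers are too few to exclude it. Correlations of deviations between same-numbered chow and statin livers ran from -0.51 to 0.13 in females and from -0.45 to 0.09 in males. Of 12 livers, 3 correlated best with their own number. With the number as a replicate block within each sex, 0 genes passed for statin in females, and 835 genes in females and 153 in males unadjusted. It called 0 members for statin in either sex, and unadjusted 2 in females and 0 in males. A block within each sex gives no value for a difference between the sexes.

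Leaving out 1 liver at a time reversed small differences. The ranges for statin in females were -0.23 to 0.078 for Asl, -0.093 to 0.18 for Otc, -0.32 to 0.051 for Gls2 and -0.16 to 0.080 for Nags. In males they were -0.072 to 0.16 for Asl, -0.046 to 0.37 for Cps1 and -0.0020 to 0.059 for Nags. For the response they were -0.28 to 0.033 for Asl, -0.17 to 0.10 for Otc and -0.21 to 0.038 for Nags, and on chow between the sexes -0.015 to 0.34 for Gls2 and -0.070 to 0.055 for Nags. On statin between the sexes they were -0.22 to 0.018 for Gpt, -0.48 to 0.10 for Got1, -0.26 to 0.18 for Cps1 and -0.23 to 0.017 for Nags. Counts of members at the adjusted p stayed at 0 except on chow between the sexes (1 to 2). At the unadjusted p they were 1 to 4 in females, 0 to 1 in males, 2 to 6 for the response and 3 to 6 on chow. Genes passing the adjusted p were 0 to 75 in females, 0 to 14 for the response, 635 to 1586 on chow and 378 to 743 on statin. Unadjusted they were 800 to 1845 in females, 127 to 703 in males, 694 to 1440 for the response and 2336 to 3355 on chow. Each member had at least 2949 counts in every liver. Depth was not varied here.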
